A study of Homo sapiens with 8 samples.

Results

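The 10 genes examined here encode ligands, receptors, a ligand store, an antagonist and a matrix target of the transforming growth factor beta (TGF-β) family. They are the rows TGFB1, TGFB2, INHBA, BMP2, BMP4, TGFBR1, TGFBR2, LTBP1, FST and TGFBI of both count tables, taken by name from 56638 gene symbols. All 10 passed the filter on low counts in both experiments.

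TGF-β and the bone morphogenetic proteins (BMPs) are secreted dimers that bind a complex of type I and type II serine/threonine kinase receptors at the cell surface. The activated receptors phosphorylate SMAD proteins, which enter the nucleus and regulate transcription, with SMAD2 and SMAD3 serving TGF-β and activin and SMAD1, SMAD5 and SMAD9 serving the BMPs. TGF-β is released in a latent form that is stored in the matrix, and activins and BMPs are held in check by secreted antagonists. In squamous carcinoma, TGF-β is known both as an inhibitor of keratinocyte growth and as an inducer of epithelial-mesenchymal transition.

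The measurements came from SCC25, an established human squamous carcinoma line of the tongue, in which the transcription factor ETS1 was depleted to ask which transcripts depend on it over the short and the long term. Short-term loss used transfection of a pool of 4 siRNAs against ETS1 (ETS1 siRNA) beside non-targeting siRNA (siRNA control). Long-term loss used a lentiviral hairpin against ETS1 (shETS1) beside a non-targeting hairpin (shCON), both under puromycin selection, and the labels give one hairpin construct, so that the effects of that hairpin and of ETS1 loss cannot be told apart. Each of the 4 groups holds 2 libraries, and the labels name no added ligand. The study's methods call the siRNA samples biological replicates, whereas nothing says this of the stable lines, so that p-values there measure the spread between 2 samples, which may be technical.

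Library totals ran from 15954616 to 20469763 counts in the siRNA experiment and from 23834078 to 25953213 in the shRNA experiment. ETS1 itself fell in both, from 288.5 and 248.0 to 17.4 and 13.2 CPM (counts normalized to sequencing depth) after siRNA (log2 fold change -4.13 ± 0.19 SE) and from 82.3 and 72.11 to 9.76 and 11.06 CPM in shETS1 (-2.89 ± 0.10). All 8 squamous markers examined (KRT5, KRT14, KRT6A, KRT17, TP63, CDH1, SFN and DSG3) were expressed in every group. CPM were scaled within each experiment, and levels were not tested between the experiments. In these bulk libraries, fewer cells of a kind and less RNA per cell cannot be told apart.

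After transient knockdown, 2 of the 10 genes changed, TGFB2 and INHBA, and both fell. Across all genes tested in that comparison, 3.41% were called, 1.13% as higher and 2.27% as lower. In the stable knockdown, 7 of the 10 changed. INHBA, FST, TGFB1 and LTBP1 fell, while TGFBR2, BMP2 and BMP4 rose. The background there was 60.6% of all genes called, 29.7% higher and 30.9% lower, so that 7 of 10 is close to the share among all genes. Calls rest on the quasi-likelihood test of edgeR with Benjamini-Hochberg adjustment over all genes and a threshold of 0.1, and adjusted p below refers to that test with n = 2 libraries per group. The median log2 fold change of the 10 genes was -0.20 after siRNA and -0.03 in shETS1, against 0.0018 and 0.00066 for all genes tested.

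**Figure D1:**
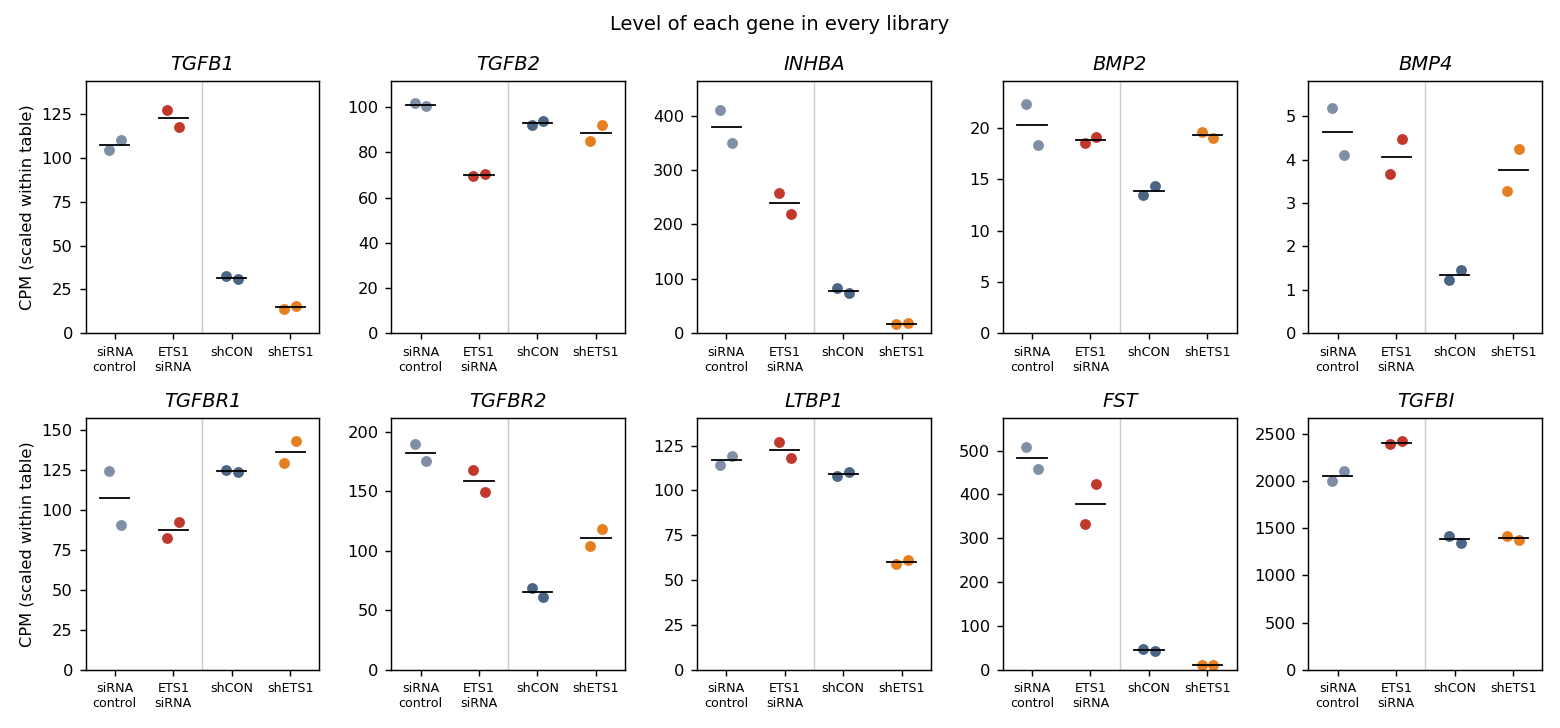
Level of each of the 10 genes in every library, as CPM scaled within each experiment (vertical axes start at 0), with 2 points per group and a line at their mean. INHBA, FST, TGFB1 and LTBP1 sit lower in both shETS1 libraries than in both shCON libraries, and INHBA and TGFB2 sit lower in both ETS1 siRNA libraries than in both controls.

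The promoter sequences of the genes with the largest changes are shown because ETS1 belongs to a factor family that binds around a GGAA core. The windows hold the 250 bases before the RefSeq transcription start (GRCh38.p14), read on the strand of the gene, with each GGAA or its complement TTCC in capitals. They cover INHBA at chr7:41703091-41703340 (minus strand), FST at chr5:53480379-53480628 (plus), TGFB1 at chr19:41353923-41354172 (minus) and the first of 3 listed starts of BMP4 at chr14:53955051-53955300 (minus).

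INHBA: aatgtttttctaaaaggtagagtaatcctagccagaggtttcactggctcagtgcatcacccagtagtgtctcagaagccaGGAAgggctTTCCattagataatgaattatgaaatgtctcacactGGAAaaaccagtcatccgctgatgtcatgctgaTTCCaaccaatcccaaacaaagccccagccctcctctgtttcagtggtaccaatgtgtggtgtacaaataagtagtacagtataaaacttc

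FST: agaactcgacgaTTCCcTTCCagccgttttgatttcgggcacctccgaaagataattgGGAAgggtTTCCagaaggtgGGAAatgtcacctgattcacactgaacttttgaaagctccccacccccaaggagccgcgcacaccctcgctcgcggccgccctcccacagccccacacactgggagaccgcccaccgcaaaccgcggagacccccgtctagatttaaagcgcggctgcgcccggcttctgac

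TGFB1: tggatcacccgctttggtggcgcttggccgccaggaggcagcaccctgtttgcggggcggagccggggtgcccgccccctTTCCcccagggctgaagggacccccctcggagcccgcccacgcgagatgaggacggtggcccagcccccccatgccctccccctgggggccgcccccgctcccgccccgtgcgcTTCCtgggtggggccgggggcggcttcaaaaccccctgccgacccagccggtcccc

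BMP4: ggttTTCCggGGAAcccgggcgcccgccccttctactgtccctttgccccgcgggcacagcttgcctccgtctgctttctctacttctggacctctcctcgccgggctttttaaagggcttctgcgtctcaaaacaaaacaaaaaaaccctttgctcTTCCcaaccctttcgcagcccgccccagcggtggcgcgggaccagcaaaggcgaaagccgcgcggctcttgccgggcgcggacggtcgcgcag

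On both strands, the INHBA window held 4 GGAA matches, the FST window 5, the TGFB1 window 2 and the BMP4 window 3. Of 35116 promoter windows of this length, 92.7% held at least 1 GGAA and the median was 3 matches, so that these letters do not set the 4 genes apart. The longer CCGGAA, present in 14.5% of windows, overlaps a GGAA by construction and was found once, at the BMP4 start. TGANTCA, present in 6.57% of windows, is a looser pattern than the AP-1 site, which has C or G at the N. It was found once, in the FST window, as TGATTCA, which is not that site. CAGAC, a SMAD-binding element present in 38% of windows, had 1 match at the BMP4 start and none in the other 3. The other genes with a listed window ranged from 0 to 7 GGAA matches per start, with TGFBR1 holding both ends of that range over its 8 starts.

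TGFB1 (chr19:41807492-41859827, GRCh37, minus strand) encodes the founding ligand of the family. It stood at 104.7 and 110.6 CPM in the siRNA controls and at 127.7 and 118.0 CPM after ETS1 siRNA. The siRNA groups did not overlap, but the difference did not pass the test (log2 fold change 0.19 ± 0.13 SE, adjusted p = 0.47). In the stable lines, TGFB1 was at 32.42 and 31.07 CPM in shCON and at 13.94 and 15.38 CPM in shETS1. Both shETS1 libraries lay well under the controls, and TGFB1 fell by 53.8% (-1.11 ± 0.10, adjusted p = 4.58e-08). TGFB1 shares 215 exon bases with HNRNPUL1 on the other strand, and the use of strand in counting was not stated. HNRNPUL1 fell in shETS1 as well (-0.77, adjusted p = 1.66e-07), and its part in the TGFB1 value was not tested.

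TGFB2 (chr1:218518678-218617961, plus strand), a second TGF-β ligand acting through the same receptors, fell after siRNA. Its level was 101.7 and 100.3 CPM in the siRNA controls against 69.59 and 70.29 CPM after ETS1 siRNA. The pairs were tight and well separated, and TGFB2 fell by 30.8% (-0.53 ± 0.12, adjusted p = 0.0923). In the stable lines it measured 92.04 and 93.85 CPM in shCON and 85.01 and 92.01 CPM in shETS1. There the shETS1 libraries were only just under the controls and the difference did not pass the test (-0.07 ± 0.07, adjusted p = 0.445). The siRNA call was lost when siRNA control replicate 1 (adjusted p = 0.541), siRNA control replicate 2 (0.199) or ETS1 siRNA replicate 2 (0.119) was left out, while the fold change stayed between -0.54 and -0.52.

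INHBA (chr7:41706766-41745432, minus strand) encodes the βA subunit that forms activin A, a ligand signaling through SMAD2 and SMAD3. It fell in both experiments. The siRNA controls had 409.6 and 349.9 CPM, and the ETS1 siRNA libraries 256.9 and 219.8 CPM. Both ETS1 siRNA values were under the lower control, and INHBA fell by 37.2% (-0.67 ± 0.14, adjusted p = 0.0728). Without siRNA control replicate 1 the adjusted p was 0.58, and without ETS1 siRNA replicate 2 it was 0.119. The stable lines had 82.58 and 73.62 CPM in shCON and 16.12 and 18.35 CPM in shETS1. These groups lay far apart, INHBA fell by 77.9%, and its log2 fold change was the largest in size of the 10 genes in either experiment (-2.18 ± 0.09, adjusted p = 4.84e-12). INHBA shares 248 exon bases with the antisense gene INHBA-AS1, which had 22 to 33 counts per siRNA library and 3 to 13 per shRNA library, against 370 or more for INHBA.

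FST (chr5:52776456-52782964, plus strand) encodes follistatin, a secreted protein that binds and neutralizes activins. It measured 507.3 and 458.9 CPM in the siRNA controls, and 331.3 and 423.1 CPM after ETS1 siRNA. The ETS1 siRNA libraries differed from each other about as much as from the controls, and the test was not passed (-0.36 ± 0.15, adjusted p = 0.255). In shCON it measured 47.77 and 41.70 CPM, and in shETS1 9.934 and 11.10 CPM. Both shETS1 libraries were far below shCON, as for the activin subunit that follistatin neutralizes, and FST fell by 76.5% (-2.09 ± 0.11, adjusted p = 3.8e-11).

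BMP2 and BMP4 encode BMP ligands, and both rose in the stable lines. BMP2 (chr20:6748333-6760893, plus strand) had 22.32 and 18.33 CPM in the siRNA controls, and 18.50 and 19.16 CPM after ETS1 siRNA. The siRNA groups overlapped (-0.11 ± 0.16, adjusted p = 0.747), and without siRNA control replicate 1 the estimate was 0.04. In shCON BMP2 was at 13.48 and 14.30 CPM, and in shETS1 at 19.61 and 19.07 CPM, a gain of 39.1% (0.48 ± 0.10, adjusted p = 0.000915). BMP4 (chr14:54416454-54425479, minus strand), the less abundant of the pair per exon length, had 5.189 and 4.116 CPM in the siRNA controls and 3.666 and 4.483 CPM after ETS1 siRNA, again with overlap (-0.19 ± 0.24, adjusted p = 0.707). In the stable lines BMP4 rose from 1.233 and 1.465 CPM to 3.268 and 4.242 CPM (1.48 ± 0.23, adjusted p = 4.22e-05). These values rest on 31 and 38 reads in shCON and on 75 and 107 reads in shETS1, the smallest counts of the 10 genes, and its standard error was the widest.

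TGFBR1 (chr9:101866320-101916474, plus strand) encodes the type I TGF-β receptor, the kinase that phosphorylates SMAD2 and SMAD3. It had 124.3 and 90.24 CPM in the siRNA controls and 82.10 and 92.66 CPM after ETS1 siRNA. The groups overlapped and the controls were far apart (-0.30 ± 0.17, adjusted p = 0.403). In shCON TGFBR1 was at 124.7 and 123.5 CPM, and in shETS1 at 129.4 and 142.9 CPM, slightly above without passing the test (0.13 ± 0.07, adjusted p = 0.138). Without shETS1 replicate 1 this became 0.20 with an adjusted p of 0.0381, without shETS1 replicate 2 it became 0.06 (0.588), and with scaling by library size alone 0.01 (0.932).

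TGFBR2 (chr3:30648093-30735634, plus strand) encodes the type II receptor, which binds the ligand first and activates the type I receptor. Its values were 189.7 and 175.2 CPM in the siRNA controls, and 167.8 and 149.5 CPM after ETS1 siRNA. Every ETS1 siRNA value was under the controls, but the difference was small beside the spread (-0.20 ± 0.13, adjusted p = 0.453). In the stable lines TGFBR2 went from 68.85 and 61.32 CPM in shCON to 103.7 and 118.3 CPM in shETS1. The groups did not overlap, and the gain was 70.6% (0.77 ± 0.08, adjusted p = 6.05e-07), so the receptor transcript rose in the comparison in which that of the ligand TGFB1 fell.

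LTBP1 (chr2:33172020-33624576, plus strand) encodes a latent TGF-β binding protein that tethers the inactive ligand to the matrix. It was at 114.4 and 119.0 CPM in the siRNA controls and at 126.7 and 117.9 CPM after ETS1 siRNA, with overlap (0.07 ± 0.13, adjusted p = 0.819). In the stable lines it fell from 108.2 and 110.1 CPM to 59.04 and 61.33 CPM, and the pairs were tight, so that LTBP1 fell by 44.8% (-0.86 ± 0.07, adjusted p = 3.02e-08).

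TGFBI (chr5:135364677-135399507, plus strand) encodes a secreted adhesion protein named for its induction by TGF-β. Its reads were the most numerous of the 10, with 2006 and 2107 CPM in the siRNA controls, and 2398 and 2421 CPM after ETS1 siRNA. The siRNA groups were separate but the test was not passed (0.23 ± 0.11, adjusted p = 0.318). In the stable lines TGFBI measured 1423 and 1347 CPM in shCON and 1414 and 1375 CPM in shETS1, overlapping values with a difference of 0.01 ± 0.08 (adjusted p = 0.933). Its estimate there changed sign with the scaling and was -0.12 when only library size was used. That scaling moved the median log2 fold change of all genes in the shRNA comparison to -0.12, from 0.00066 with the trimmed mean of M values.

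**Figure D2:**
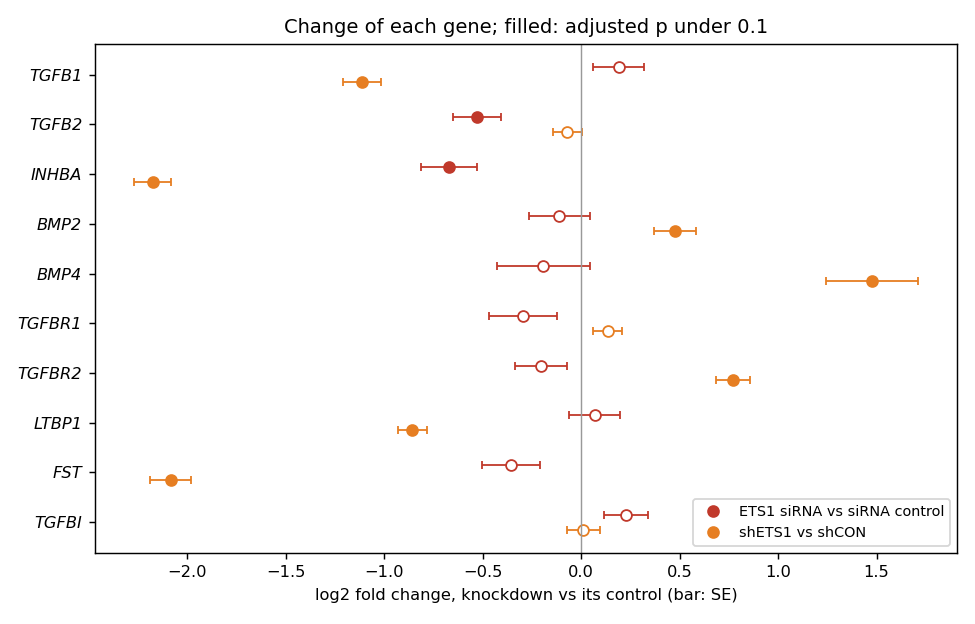
Log2 fold change of each gene against its own control (horizontal axis, with SE bars) after ETS1 siRNA (red) and in shETS1 (orange), with filled points for an adjusted p under 0.1. Filled points are seen for 2 genes after siRNA and 7 in shETS1, and only INHBA is filled in both.

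Whether the knockdowns differed in effect was tested directly as the shETS1 effect minus the ETS1 siRNA effect over all 8 libraries. The difference was called for 8 of the 10 genes, beside 34.8% of all genes (15.1% higher and 19.7% lower). It was below 0 for FST (-1.75 ± 0.19, adjusted p = 0.000162), INHBA (-1.53 ± 0.18, 0.0002), TGFB1 (-1.32 ± 0.15, 0.000155) and LTBP1 (-0.95 ± 0.13, 0.000471). It was above 0 for BMP4 (1.65 ± 0.32, adjusted p = 0.00368), TGFBR2 (0.95 ± 0.16, 0.00151), BMP2 (0.57 ± 0.17, 0.0315) and TGFB2 (0.44 ± 0.13, 0.028). The difference did not pass the test for TGFBR1 (0.41 ± 0.20, adjusted p = 0.157) and TGFBI (-0.24 ± 0.13, 0.21). The TGFB2 difference was lost without shCON replicate 1 (0.133), shCON replicate 2 (0.115) or shETS1 replicate 2 (0.132). That of BMP2 was lost without siRNA control replicate 1 or shCON replicate 1 (0.132 each). The experiments also differed in delivery, duration, selection and the fold reduction of ETS1 (1.23 ± 0.21, adjusted p = 0.0017). The ETS1 left was at a mean of 15.3 CPM after ETS1 siRNA and 10.41 CPM in shETS1. Mean control levels, not tested between experiments, were 268.2 CPM in the siRNA controls and 77.21 CPM in shCON for ETS1. Those of FST were 483.1 and 44.74 CPM, and of the 10 genes only TGFBR1 was higher in shCON (107.3 and 124.1 CPM). The effects of these differences cannot be told apart.

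Levels of different genes were compared as RPKM, the CPM divided by the kilobases of exon. TGFBI led in every group, at 266.5 RPKM ± 9.25 (SD, n = 2) in the siRNA controls and 179.4 ± 6.95 in shCON, and BMP4 was last, at 1.503 ± 0.245 and 0.436 ± 0.053. In the siRNA controls FST came next after TGFBI at 175.5 RPKM ± 12.4, followed by INHBA (45.8 ± 5.1), TGFB1 (33.0 ± 1.3), TGFBR2 (26.6 ± 1.5), TGFB2 (16.7 ± 0.15), LTBP1 (15.9 ± 0.44), TGFBR1 (13.4 ± 3.0) and BMP2 (5.73 ± 0.79). No neighbors in that order had overlapping ranges. After ETS1 siRNA, INHBA (28.8 RPKM ± 3.2) stood below TGFB1 (37.6 ± 2.1), and TGFB2 (11.6 ± 0.08) overlapped TGFBR1 (10.9 ± 0.93).

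The order in the stable lines was different. In shCON, FST was at 16.3 RPKM ± 1.6 and overlapped TGFBR1 (15.5 ± 0.11), which in turn overlapped TGFB2 (15.4 ± 0.21). LTBP1 (14.9 ± 0.19) stood below them. TGFB1 (9.73 ± 0.29), TGFBR2 (9.50 ± 0.78) and INHBA (9.43 ± 0.76) each overlapped the next of these, above BMP2 (3.92 ± 0.16). In shETS1 the receptors TGFBR1 (17.0 RPKM ± 1.2) and TGFBR2 (16.2 ± 1.5) took the places after TGFBI and overlapped, with TGFB2 (14.6 ± 0.82) overlapping TGFBR2. LTBP1 (8.19 ± 0.22), BMP2 (5.46 ± 0.11), TGFB1 (4.49 ± 0.31), FST (3.82 ± 0.30) and INHBA (2.08 ± 0.19) followed without overlap, so that BMP2 stood above TGFB1, FST and INHBA in shETS1 and below all 3 in shCON.

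Ratios of length-corrected reads within a library do not depend on the scaling between libraries. INHBA relative to its antagonist FST was 0.574 and 0.586 in shCON and 0.539 and 0.549 in shETS1. Both transcripts fell by over 76%, and their ratio stayed near its control value. In the siRNA experiment the ratio was 0.268 and 0.253 in the controls and 0.258 and 0.173 after ETS1 siRNA, with replicate 2 low.

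The balance of the ligands TGFB2 and TGFB1 moved in opposite directions. TGFB2 relative to TGFB1 was 1.53 and 1.63 in shCON and 3.29 and 3.23 in shETS1, whereas it was 0.524 and 0.489 in the siRNA controls and 0.294 and 0.321 after ETS1 siRNA. TGFBR2 relative to TGFBR1 was 0.644 and 0.579 in shCON and 0.935 and 0.966 in shETS1, while the siRNA libraries overlapped, at 1.78 and 2.27 in the controls and 2.38 and 1.88 after ETS1 siRNA. BMP4 relative to BMP2 was 0.105 and 0.117 in shCON and 0.191 and 0.255 in shETS1, and it overlapped between the siRNA groups at 0.266 and 0.257 against 0.227 and 0.268. No test was run on these ratios.

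**Figure D3:**
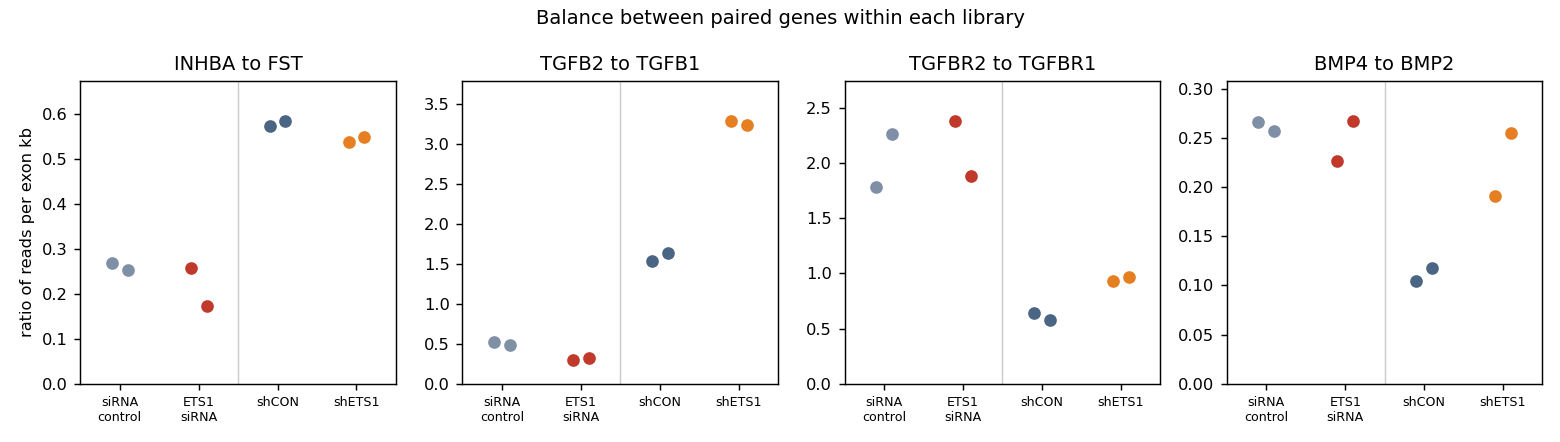
Ratios of length-corrected reads between 4 pairs of genes in every library (vertical axes start at 0), with 2 points per group. TGFB2 to TGFB1 rises from 1.53 and 1.63 in shCON to 3.29 and 3.23 in shETS1 and drops from 0.524 and 0.489 to 0.294 and 0.321 after ETS1 siRNA, while INHBA to FST lies between 0.539 and 0.586 in all stable lines.

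For INHBA, FST and BMP4, the members with the largest summed changes, the genes of most similar pattern were sought among 10049 or 10050 genes by the distance between log2 CPM values centred within each table over the 8 libraries. INHBA was nearest to ABCA13 (distance 0.342) and SLC29A1 (0.347), beside a median distance of 2.29 to all genes. FST was nearest to PHLDA1 (0.215) and TRIB3 (0.227), with a median of 2.14. BMP4 was nearest to PRKAG2 (0.255) and BTG1 (0.315), with a median of 1.63. Since these members were picked for large changes, most genes lie far from them by that choice, and the median gives no test of likeness. The likeness mostly reflects the stable lines, since in shETS1 PHLDA1 and TRIB3 both changed by -2.24 and after siRNA by -0.44 and -0.31 without passing the test.

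The wider pathway was examined through 110 further genes in 10 lists. After ETS1 siRNA 74 were tested, 1 rose and 5 fell, with a median log2 fold change of 0.02. In shETS1 82 were tested, 26 rose and 28 fell, with a median of 0.03. The share called in shETS1, 54 of 82, may be read against the 60.6% of all genes given above. Among the genes called in shETS1, LEFTY1 and LDLRAD4 passed the filter on low counts only through shETS1, and GDF15, BMP6, RGMA and DAND5 only through shCON, so that the direction of these 6 was fixed in part by the filter. With genes at the filter's level in both groups, 24 rose and 24 fell of 71 tested.

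Among the other TGF-β, activin and GDF ligands, 7 of 13 were tested in shETS1, where 3 rose and 3 fell. Of all genes tested there, 60.6% were called. With genes at the filter's level in both groups, 2 of these ligands rose and 2 fell of 4 tested. INHBB, the βB activin subunit, rose from 146 and 138 counts to 305 and 293 (1.16 ± 0.14, adjusted p = 1.33e-06) while INHBA fell. LEFTY1, an inhibitor of nodal signaling, had 2 and 2 counts in shCON against 66 and 41 in shETS1, a ratio of 28.4 with a 95% exact counting interval of 10.8 to 106. GDF15, a stress-induced cytokine of the family, went from 38 and 31 counts to 3 and 1, 16.3 times lower (6.07 to 61.4). LEFTY1 has a near-identical neighbor, LEFTY2, so that reads could be split between them. After siRNA 5 of these ligands were tested and 0 passed in edgeR, with 2 at an unadjusted p under 0.05 and 0 in DESeq2. Of 15 further BMP ligands, 3 were tested in each experiment, and after siRNA 0 passed in edgeR, in DESeq2 or at an unadjusted p under 0.05. In shETS1 BMP7 fell from 662 and 649 counts to 405 and 402 (-0.61 ± 0.10, adjusted p = 5.41e-05), unlike BMP2 and BMP4. BMP6 went from 57 and 59 counts to 9 and 12 (-2.37 ± 0.32, adjusted p = 6.89e-06), a direction fixed in part by the filter. BMP6 shares exon bases with TXNDC5 and BLOC1S5-TXNDC5 on the other strand, 419 when summed over both genes.

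Among 10 other receptors, 8 were tested in shETS1, where 2 rose and 1 fell, beside 60.6% of all genes called. The activin type II receptor ACVR2A (0.65 ± 0.13, adjusted p = 0.000387) and the BMP type I receptor BMPR1B (0.49 ± 0.13, 0.00325) rose, and the BMP type I receptor BMPR1A fell (-0.25 ± 0.08, 0.0134), a call lost without shCON replicate 1 (0.14). After siRNA, 1 of 7 was called, beside 3.41% of all genes. It was the type I receptor ACVR1C, which fell from 168 and 103 counts to 64 and 73 (-1.03 ± 0.22, adjusted p = 0.0742). ACVR1C did not pass the test in shETS1 (-0.19 ± 0.15, adjusted p = 0.291). Of 5 co-receptors tested in shETS1, 2 rose and 2 fell, beside the 60.6% of all genes called. RGMA passed the filter only through shCON. With genes at the filter's level in both groups, 2 co-receptors rose and 1 fell of 4 tested. TGFBR3, the betaglycan that presents TGF-β2 to TGFBR2, rose from 379 and 395 counts to 1099 and 1288 (1.71 ± 0.09, adjusted p = 7.1e-11). The BMP co-receptors RGMA (-1.66 ± 0.50, adjusted p = 0.00982) and RGMB (-0.38 ± 0.12, 0.0129) fell there, RGMA on 4 and 6 reads. The calls of both were lost without shETS1 replicate 1 (0.105 and 0.113), that of RGMA also in DESeq2 (0.151), which called 2 of the co-receptors where edgeR called 4. RGMB was also the co-receptor called after siRNA (-0.67 ± 0.16, adjusted p = 0.0925).

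Of 8 secreted antagonists other than FST tested in shETS1, 3 were called, all as lower, beside 30.9% of all genes called lower. The direction of DAND5 was fixed in part by the filter. With genes at the filter's level in both groups, 2 fell of 5 tested. FSTL3, a follistatin relative that also binds activins, fell from 2144 and 2283 counts to 1361 and 1375 (-0.61 ± 0.08, adjusted p = 3.39e-06). The BMP antagonist GREM1 fell by less (-0.31 ± 0.09, adjusted p = 0.00941), and this was lost without shCON replicate 1 (0.129). DAND5 fell from 12 and 27 counts to 9 and 5 (-1.37 ± 0.52, adjusted p = 0.0334), lost without shCON replicate 2 (0.466) or shETS1 replicate 2 (0.232) and in DESeq2 (0.228), which called 2 of the antagonists. After siRNA, edgeR called 0 of 8 antagonists tested, with 2 at an unadjusted p under 0.05 and 1 called by DESeq2.

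Among the 11 genes of latency and activation beside LTBP1, 3 rose and 4 fell in shETS1. Of all genes tested there, 29.7% were called higher and 30.9% lower. The microfibril protein FBN2 fell most, from 256 and 252 counts to 26 and 30 (-3.09 ± 0.18, adjusted p = 3.13e-10). FURIN, the protease that cleaves the TGF-β precursor, fell (-0.89 ± 0.09, adjusted p = 1.31e-07), as did LTBP4 (-1.06 ± 0.14, 6.04e-06). After siRNA, THBS1, which can activate latent TGF-β, fell from 117407 and 81716 counts to 55267 and 60095 (-0.83 ± 0.13, adjusted p = 0.0273). THBS1 was also among the genes that fell in shETS1 (-0.70 ± 0.10, adjusted p = 1.99e-05). The integrin subunit ITGB6, which activates latent TGF-β as part of αvβ6, fell after siRNA (-0.71 ± 0.17, adjusted p = 0.093). It did not pass the test in shETS1 (-0.01 ± 0.08, adjusted p = 0.942). On the other strand, THBS1 shares 448 exon bases with FSIP1, and FBN2 shares 56 with SLC27A6.

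Among 8 SMADs tested in shETS1, 2 rose and 3 fell, beside 60.6% of all genes called there. After siRNA, 0 of 7 passed in edgeR, in DESeq2 or at an unadjusted p under 0.05. The BMP-responsive SMAD9 rose from 67 and 41 counts to 204 and 250 (2.15 ± 0.20, adjusted p = 6.73e-08), and the inhibitory SMAD6 rose (0.59 ± 0.15, 0.00318). SMAD4, the partner shared by both branches, fell (-0.48 ± 0.09, adjusted p = 0.00033). Among 12 SMAD regulators, 3 rose and 5 fell in shETS1, beside the same share of all genes. The corepressor TGIF1 (0.86 ± 0.07, adjusted p = 3.25e-08), the deubiquitinase USP15 (0.81 ± 0.08, 9.12e-08) and the SMAD antagonist LDLRAD4, from 9 and 12 to 77 and 101 counts (3.15 ± 0.29, 8.7e-08), made up the risers, of which LDLRAD4 is one of the genes tied to the filter. After siRNA, SKIL, a SMAD corepressor, was called and fell (-0.85 ± 0.21, adjusted p = 0.0971). SKIL also fell in shETS1 (-0.22 ± 0.08, adjusted p = 0.0187).

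Targets of the pathway moved unevenly in shETS1, where 29.7% of all genes tested were called higher and 30.9% lower. Of 12 TGF-β response genes, 5 rose and 4 fell, with a list median of 0.28 that was 0.44 without shCON replicate 1, 0.13 without shCON replicate 2 and 0.09 without shETS1 replicate 2. The cell cycle inhibitor CDKN2B rose from 1094 and 1008 counts to 3333 and 3801 (1.85 ± 0.08, adjusted p = 4.84e-12), and TAGLN, an actin-binding protein, from 298 and 260 to 664 and 726 (1.40 ± 0.11, 8.33e-09). TAGLN shares 2233 exon bases with PCSK7 on the other strand. Of 8 BMP response genes, 6 rose and 1 fell, with a list median of 0.81 that stayed between 0.66 and 0.99 under the alternatives, in which 5 or 6 rose. ATOH8 rose from 46 and 53 counts to 460 and 413 (3.23 ± 0.16, adjusted p = 3.49e-11), ID4 from 391 and 465 to 1136 and 1096 (1.47 ± 0.10, 1.9e-09) and ID2 from 432 and 437 to 926 and 917 (1.17 ± 0.09, 1.5e-08). HEY1, the BMP response gene not called, passed the filter only through shETS1 and is part of the BMP list's median. With genes at the filter's level in both groups, 6 BMP response genes rose and 1 fell of 7 tested. After siRNA, 1 of the 12 TGF-β targets was called, beside 3.41% of all genes. It was COL1A1, which rose (0.73 ± 0.14, adjusted p = 0.0496). COL1A1 also rose in shETS1 (0.96 ± 0.16, adjusted p = 6.34e-05). Of 6 BMP targets tested after siRNA, 0 passed in edgeR, at an unadjusted p under 0.05 or in DESeq2. All 6 pathway calls after siRNA were lost without siRNA control replicate 1 (adjusted p from 0.205 to 0.715). Those of ACVR1C (0.132) and RGMB (0.156) were also lost without ETS1 siRNA replicate 2, and those of RGMB (0.106) and COL1A1 (0.152) without siRNA control replicate 2.

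**Figure D4:**
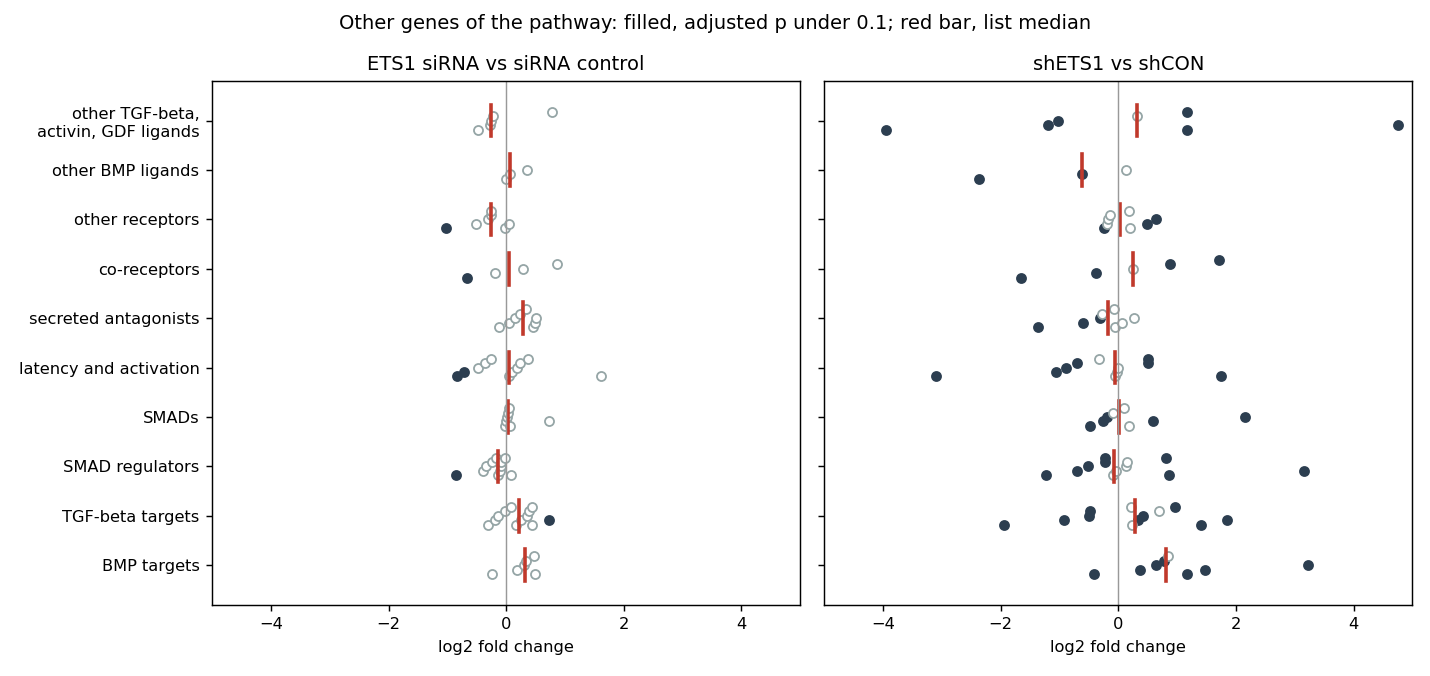
Log2 fold changes of the other pathway genes tested, by list, after ETS1 siRNA (left) and in shETS1 (right), with filled points for an adjusted p under 0.1 and a red bar at the list median. In shETS1 the BMP targets have a median of 0.81 with 6 called above 0 and 1 below, whereas the TGF-β targets are spread over both sides. Of all genes tested there, 29.7% were called above 0 and 30.9% below. The BMP median includes HEY1, which passed the filter on low counts only through shETS1.

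Markers of other cell types and of squamous cells were measured in the same libraries. Of 7 fibroblast markers, 5 were tested in shETS1 and all 5 rose (DCN, LUM, COL3A1, COL1A2 and PDGFRA), beside 29.7% of all genes called higher. PDGFRB and THY1 were not tested there. PDGFRB had 8 and 6 counts in shCON and 9 and 8 in shETS1, and THY1 had 3 and 3 against 2 and 4. The fibroblast list summed to 250.4 to 276.3 CPM in shCON and 2125 to 2227 CPM in shETS1. After siRNA 0 of 7 passed in edgeR, with 2 at an unadjusted p under 0.05 and 0 in DESeq2, and with sums of 60.68 to 74.31 and 78.55 to 99.11 CPM. Of 5 endothelial markers, 2 were tested in shETS1. KDR rose from 46 and 44 counts to 550 and 600 and carried most of the list's sums of 2.081 to 2.108 and 24.75 to 24.82 CPM. TEK had 2 and 3 counts in shCON and 16 and 24 in shETS1, and passed the filter only through shETS1. VWF, not tested, had 5 and 7 counts in shCON and 2 and 2 in shETS1, while CDH5 had no read and neither did PECAM1, whose symbol had no unique match in the annotation used here. Leukocyte markers summed to at most 4.052 CPM in any library. Of the 8 squamous markers, 5 rose and 2 fell in shETS1, with sums of 15630 to 15760 and 25960 to 26380 CPM. After siRNA edgeR called 0 of the 8 squamous markers, with 4 at an unadjusted p under 0.05 and 4 called by DESeq2, and the sums were 15650 to 20490 CPM in the controls and 23570 to 27460 CPM after ETS1 siRNA. The part of these shifts in the changes of the 10 genes was not tested.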

How the data were processed

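RNA from SCC25 cells was sequenced by the authors as 50 bp single-end TruSeq libraries. Per the labels, reads were mapped to GRCh37 with TopHat2 2.1.1 and Bowtie2 2.2.6 and assigned to genes with featureCounts 1.5.0. The deposited values are raw counts per gene symbol, not normalized, in one table per knockdown. The use of strand and of reads with several matches is not given in the sources used here. Counts were analyzed in R 4.3.3 with edgeR 4.0.16 by its two-sided quasi-likelihood test, with TMM scaling, filterByExpr and group as the only term, on the 4 libraries of each experiment, or on all 8 for the difference between knockdowns. Benjamini-Hochberg adjustment ran over all genes tested, called under 0.1. The standard error is the absolute log2 fold change divided by the square root of F. DESeq2 1.42.0, which the authors used, was an alternative. The script was tested on simulated data. Exon lengths came from GENCODE v44lift37 and promoter windows from RefSeq (GRCh38.p14), which held one for 9 of the 10 genes. Intervals of count ratios cover counting error only.

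The genes named are the 10 and ETS1, up to 3 called genes per pathway list and knockdown by adjusted p, and the 2 nearest patterns for each of 3 genes. One gene that this rule selects is not reported here. The members and lists were chosen with earlier results of these data known. Replicates differed by far more than counting noise (chi-square per degree of freedom 6.229 to 23.17, pooled over the genes of each group). This cannot show whether the 2 libraries of a group came from separate cultures. Common dispersion was 0.0192 for the siRNA and 0.00402 for the shRNA libraries, so the siRNA comparison was the less precise.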

Additional observations from a re-analysis of the deposited data

Results flagged for a closer look

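The results below were picked out because the stable and the transient knockdown of ETS1 had unequal effects on them, by the edgeR test of the shETS1 effect minus the ETS1 siRNA effect at an adjusted p under 0.1. All values are log2 differences. The difference was called for 34.8% of all genes, so its presence alone does not set these genes apart.

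Among the 10 genes the difference was -1.75 for FST, -1.53 for INHBA, -1.32 for TGFB1 and -0.946 for LTBP1, and 1.65 for BMP4, 0.952 for TGFBR2, 0.569 for BMP2 and 0.44 for TGFB2. ETS1 itself differed by 1.23, since its fold reduction was larger after siRNA. INHBA fell in both experiments and by more in shETS1, while TGFB2 fell after siRNA and did not pass the test in shETS1.

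Among other ligands the difference was -3.69 for GDF15, on 3 and 1 reads in shETS1, -2.39 for BMP6 and -0.987 for BMP7. Among receptors and co-receptors it was 0.822 for ACVR1C, 1.87 for TGFBR3 and -2.54 for RGMA. Among antagonists it was -1.11 for FSTL3 and -0.564 for GREM1. In latency and activation it was 0.684 for ITGB6, -2.75 for FBN2, -0.957 for FURIN and -0.824 for LTBP4. For SMAD4 and the SMAD regulators it was -0.532 for SMAD4, 0.611 for SKIL, 0.865 for TGIF1, 1.71 for LDLRAD4 and 1.03 for USP15. Among targets it was 1.84 for CDKN2B, 1.29 for TAGLN, 1.12 for ID4 and 0.674 for ID2.

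Of the 21 differences outside the 10 genes and ETS1, 10 were called under all 16 alternatives and 11 were lost or not tested under some, without a change of sign. The calls of SMAD4 (0.273 without shETS1 replicate 1), SKIL (0.397 without siRNA control replicate 1), LDLRAD4 (0.314 without siRNA control replicate 1) and ID2 (0.317 without siRNA control replicate 2) were lost under the most alternatives. Those of ACVR1C (0.145 without siRNA control replicate 1, 0.124 without shETS1 replicate 2), GREM1 (0.146 without shCON replicate 1, 0.153 without shETS1 replicate 1), ITGB6 (0.103 without siRNA control replicate 1) and ID4 (0.144 without siRNA control replicate 2) were also lost.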

How the results depend on the processing

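The shRNA comparison and the difference between knockdowns changed little: members called ranged from 7 to 8 and from 6 to 9, and genes called from 7609 to 10923 and from 4131 to 7467. The siRNA comparison did not hold in the same way. Members called after siRNA fell from 2 to 0 at an adjusted p under 0.05, and ranged from 0 to 2 when a library was left out. Genes called after siRNA, 502 in all, became 190 at an adjusted p under 0.05, 1466 with no filter on low counts, 766 with DESeq2, 2166 with all 8 libraries in one fit and 795 with protein-coding genes of at least 1 TPM, and ranged from 72 (without siRNA control replicate 1) to 1478 (without ETS1 siRNA replicate 1). The cause was not tested. No called value changed sign. Of 28 called pathway genes named in shETS1, 17 were called under all 14 alternatives, and 11 were lost or not tested under some.

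Replicate numbers did not pair the samples, with correlations of deviations of -0.566 (siRNA) and -0.13 (shRNA) between same-numbered libraries. With the replicate number as a block, 0 members and 97 genes were called after siRNA, the adjusted p of INHBA was 0.161 and that of TGFB2 0.261, and the BMP2 difference between knockdowns had 0.103. Crossed numbers, added after seeing the data, gave 3238 genes after siRNA and called FST there. Scaling by library size alone called TGFB2 in shETS1 (-0.20, adjusted p = 0.0507). BMP4 is limited by its read number.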
